A study of Mus musculus with 8 samples.

Results

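Cells repair a break through both strands of their DNA, or a crosslink between the strands, with a set of 43 genes that is described here in germinal centre B cells of the mouse spleen. The genes were picked by symbol, not by a cut on any measured value, but with earlier results of these data known. All 43 were found among the 55421 gene identifiers of the deposited count table. They fall into 5 roles: 13 genes of homologous recombination, 10 of the Fanconi anaemia pathway, 8 of end joining, 4 kinases that sense damage and halt the cell cycle, and 8 that recognise a break or steer the trimming of its ends. RNA was sequenced in bulk from C57BL/6 mice aged 8 to 10 weeks, on day 10 after an immunization whose agent the labels do not name. Germinal centre B cells were taken with magnetic beads against PNA, a lectin that binds their surface, and are labelled CB or CC. These labels are read here as centroblasts, the dividing cells of the dark zone, and centrocytes, the cells of the light zone that are tested for binding to antigen. How CB and CC were separated is not stated in the labels. The mice had the genotype Smarca4+/+ (labelled WT) or Smarca4+/- (labelled HET), in all their cells as far as the labels say. Smarca4 encodes an ATPase of the SWI/SNF complexes, which move nucleosomes. Each of the 4 groups, WT CB, HET CB, WT CC and HET CC, held 2 libraries, and the labels do not say whether these were different mice, pools or repeats of 1 sample, so the p-values reflect nothing more than how far these libraries differ, and that spread may be technical.

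Centroblasts divide fast and express AID, an enzyme that deaminates cytosines in the immunoglobulin genes and thereby starts both hypermutation and class switching. Class switching joins AID-induced breaks by end joining, while breaks that arise during replication are repaired mainly by homologous recombination, which copies the intact sister chromatid in S and G2 phase. Fanconi proteins unhook crosslinks and protect stalled replication forks, and the kinases ATM, ATR, CHK1 and CHK2 hold the cell cycle while repair proceeds. Many recombination and Fanconi genes are transcribed most in S and G2 phase.

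The 9 genes of the set that passed the edgeR test in any comparison, all of them lower in CC than in CB, were H2afx, Brca1, Bard1, Rad51ap1, Polq, Fancm, Chek1, Rif1 and Parp1. The bases before the transcription start are printed for 3 of them, chosen because they hold a match outside annotated exons. They are read 5′ to 3′ on the gene's strand from RefSeq on GRCm38.p6 and cut back where an annotated exon of a neighbour begins. Capitals mark matches to CCAAT, the box bound by NF-Y, or to the CHR element bound by the complexes that time G2/M transcription (TTTGAA or TTCGAA), on either strand. The stretch for Brca1 is chr11:101551956-101552148 (minus strand), that for Rad51ap1 is chr6:126939588-126939837 (minus strand) and that for Polq is chr16:37011536-37011785 (plus strand).
Brca1: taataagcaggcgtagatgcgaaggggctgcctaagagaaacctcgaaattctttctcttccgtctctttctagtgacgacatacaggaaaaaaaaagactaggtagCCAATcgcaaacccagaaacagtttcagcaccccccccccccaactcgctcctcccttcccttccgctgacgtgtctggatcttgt
Rad51ap1: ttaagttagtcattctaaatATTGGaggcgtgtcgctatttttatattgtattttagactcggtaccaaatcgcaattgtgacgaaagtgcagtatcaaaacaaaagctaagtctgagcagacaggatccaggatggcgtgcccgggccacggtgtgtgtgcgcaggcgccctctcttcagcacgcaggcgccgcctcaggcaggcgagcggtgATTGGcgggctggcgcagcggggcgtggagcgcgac
Polq: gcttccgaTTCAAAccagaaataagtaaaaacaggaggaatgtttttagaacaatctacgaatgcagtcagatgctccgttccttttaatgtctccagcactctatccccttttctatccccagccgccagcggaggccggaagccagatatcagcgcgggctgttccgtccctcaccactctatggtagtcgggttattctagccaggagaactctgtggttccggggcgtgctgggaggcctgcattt

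A window from 250 bases before to 50 bases after the RefSeq start was at hand for 33 of the 43 genes. CCAAT occurred on either strand in 19 of these 33 windows (57.6%), against 37.9% of the windows of 27025 genes and 39.3% of those of 9074 genes tested here. E2F sites, which bind the factors that switch on S phase genes, were searched as TTTCCCGC, TTTCGCGC, TTTGCCGC or TTTGGCGC and occurred in 6 windows (18.2%), those of Bard1, Brca2, Chek2, Fancg, Rad51c and Xrcc6, against 2.32% of all windows and 4.34% of those of tested genes. The CHR letters occurred in 3 windows (9.09%), those of Bard1, Polq and Atr, against 19.4% of all windows and 14.3% of those of tested genes. The E-box CACGTG occurred in 2 (6.06%), against 7.24% and 10.6%. Among the genes that passed the edgeR test, Brca1, Rad51ap1 and Fancm held CCAAT, Polq held CHR, and Bard1 held E2F and CHR. Parp1 held only the E-box, Chek1 held no match, and H2afx and Rif1 had no window. No match of 1 pattern overlapped a match of another in the 33 windows, and a match describes letters, not a bound site.

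The labels were checked first. Smarca4 stood at 897 and 1002 CPM (counts per unit of scaled library size, the same unit in all libraries) in WT CB against 734 and 702 in HET CB, and at 322 and 316 CPM in WT CC against 244 and 311 in HET CC, so that HET lay below WT in both fractions without passing the edgeR test in either (log2 fold change -0.40, adjusted p = 1, in CB and -0.20, adjusted p = 0.607, in CC). Summed CPM of 6 dark zone markers was 1273 to 1497 in CB and 368 to 576 in CC, and that of 8 light zone markers 309 to 380 in CB and 843 to 1113 in CC. The 12 germinal centre and B cell markers summed to 5718 to 6431 CPM in CB and 3993 to 5307 in CC. Markers of other cells were also higher in CC: 17 macrophage and monocyte markers summed to 65.8 to 325 CPM in CB and 1986 to 4710 in CC, 16 T cell markers to 113 to 141 and 223 to 844, and 10 erythroid markers to 7.78 to 17.6 and 140 to 811. Lck made up most of the T cell sum in CB, at 108 to 132 CPM, and stood at 100 to 204 in CC. The median log2 fold change of the T cell list, CC against CB, was 6.57 in WT and 5.34 in HET. Plasma cell markers (6) summed to 473 to 584 and 428 to 543 CPM, and neutrophil markers (6) to 0 to 3.69 and 0 to 216. Of these 3 lists 0 to 2 macrophage, 0 to 2 T cell and 0 to 2 erythroid markers were at 0 counts in a CC library, and the second HET CC library had the lowest sum of each list among the CC libraries (1986, 223 and 140 CPM). Their part in the differences between CC and CB was not tested, and in bulk RNA fewer cells of a type and less RNA per cell cannot be told apart. The libraries held 18357578 to 24341805 counts in CB but 526353 to 837558 in CC, and replicates correlated across genes at 0.964 and 0.979 in CB against 0.738 and 0.751 in CC (Pearson, log2 CPM). The repair genes together had 61290 to 71020 counts in each CB library, 1137 and 1262 in WT CC, and 1668 and 2470 in HET CC. All 43 passed the low count filter (12997 genes did), but 2 and 8 of them were at 0 counts in the WT CC libraries and 2 and 0 in the HET CC libraries.

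Levels of different genes are compared as CPM per kb of the deposited gene length, which counts every annotated exon base and so lowers the value of genes with long rare isoforms. The repair genes spanned a wide range in WT CB. H2afx, the histone variant phosphorylated around breaks, stood highest at a mean of 268 CPM per kb (n = 2), and Parp1, the sensor of strand breaks that also serves alternative end joining, second at 101. Next came Rad50, the ATPase of the complex that grips broken ends, at 19.4, Rif1, which with 53BP1 shields ends from trimming, also at 19.4, and Bard1, the partner of BRCA1, at 19.0. The lowest were Fance, a subunit of the Fanconi core complex, at 2.40, Xrcc4, the scaffold of the end joining ligase, at 2.19, and Atr, the kinase of stalled forks, at 1.25.

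Within each role the genes were unequal as well. Averaged over all 8 libraries, Bard1 was the highest of the recombination genes at 15.04 CPM per kb and Rad51b the lowest at 1.77. Fancm, the translocase that anchors the Fanconi core complex to forks, led the Fanconi genes at 11.7, and Fancb, a core subunit, was the lowest of them at 2.24. Among end joining genes the range ran from Parp1 at 85.4 to Xrcc4 at 2.16, and among the kinases from Atm, which answers double-strand breaks, at 15.8 to Atr at 1.69. Genes of break recognition ran from H2afx at 184 to Mad2l2, the shieldin component also called REV7, at 4.14. Neighbours in this order below the highest pair often had library values that overlapped, as the log plot of levels per length shows.

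**Figure D1:**
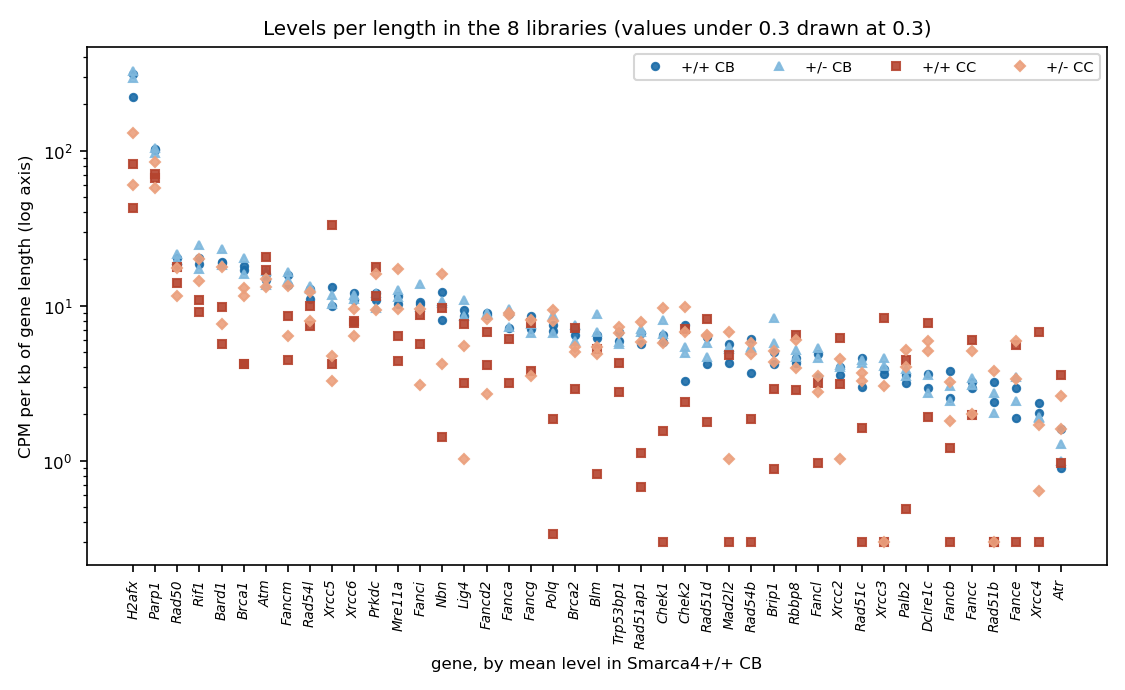
CPM per kb of gene length (log axis) of the 43 repair genes in each of the 8 libraries, ordered by their mean in WT CB; each point is 1 library and values under 0.3 are drawn at 0.3. H2afx and Parp1 stand above all others in WT CB at means of 268 and 101, and the CC points (squares and diamonds) scatter more than the CB points.

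Together the repair genes had a lower summed level in CC than in CB after scaling of the libraries. Their summed level was 3113 and 3315 CPM in WT CB and 3551 and 3217 in HET CB, against 2032 and 2063 in WT CC and 2227 and 2928 in HET CC, so that all 4 CC libraries lay below all 4 CB libraries. As a share of unscaled counts they held 0.302% and 0.292% in WT CB and 0.367% and 0.292% in HET CB. That share was 0.216% and 0.214% in WT CC and 0.246% and 0.295% in HET CC. By this measure the second HET CC library lay within the CB range. The recombination genes summed to 644 to 753 CPM in the 4 CB libraries, to 261 and 394 in WT CC and to 445 and 621 in HET CC, again with no overlap between fractions in scaled CPM. Fanconi genes summed to 456 to 533 CPM in CB, 322 and 239 in WT CC, and 335 and 423 in HET CC. Break recognition genes summed to 856 to 1042 CPM in CB, 499 and 374 in WT CC, and 574 and 756 in HET CC. The kinases showed no such gap, with sums of 209 to 257 CPM in CB, 273 and 257 in WT CC and 254 and 256 in HET CC. Atm made up most of these sums, with pooled levels of 158 CPM in WT CB and 195 in WT CC. In WT, Chek1 went from a pooled 28.7 CPM in CB to 3.41 in CC, Chek2 from 16.5 to 14.5, and Atr from 29.8 to 52.1. End joining genes summed to 865 to 965 CPM in CB, and to 677 and 799 in WT CC, while the HET CC libraries, at 620 and 871, reached into the CB range. The largest part in CB was H2afx for break recognition and Parp1 for end joining, at pooled levels of 373 and 536 CPM in WT CB.

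In WT cells, 6 of the 43 genes fell from CB to CC (edgeR, adjusted p under 0.05) and 0 rose. The share called lower was 14.0%, against a background of 3.76% of all genes tested, and 3.72% of all genes were called higher. The 6 were Brca1, H2afx, Polq, Rad51ap1, Chek1 and Rif1, which belong to 4 of the 5 roles. The median log2 fold change of the 43 was -0.71, against -0.19 for all 12997 genes, and 32 of the 43 were negative (74.4%, background 57.9%). Non-overlapping libraries were seen for 25 genes on the low side (58.1%, background 38.5%) and for 1 on the high side (2.33%, background 18.2%), which was Atm.

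Brca1, the ubiquitin ligase subunit that promotes homologous recombination at breaks (ENSMUSG00000017146.12, mm10 chromosome 11, 101488764 to 101551955), stood at 144 and 154 CPM in WT CB and at 35.7 and 36.0 CPM in WT CC. The WT CC values rest on 20 and 22 counts and were alike in both libraries. Its log2 fold change was -2.05 (SE 0.27, edgeR adjusted p = 0.0021), and it was called with each of the 8 libraries left out in turn. Rad51ap1, a gene of homologous recombination (chromosome 6, 126923050 to 126939587), stood at 27.3 and 32.2 CPM in WT CB and at 5.36 and 3.27 in WT CC. Those CC values are 3 and 2 counts, and the log2 fold change was -2.79 (SE 0.58, adjusted p = 0.0163). Rad51ap1 was called in 12 of 19 other settings. Both genes have CCAAT matches in the stretches printed above.

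Polq, the polymerase theta of microhomology-mediated end joining (chromosome 16, 37011786 to 37095417), stood at 72.1 and 66.7 CPM in WT CB and at 17.9 and 3.27 in WT CC, or 10 and 2 counts. The log2 fold change was -2.75 (SE 0.50, adjusted p = 0.00939), and it was -4.41 without the first WT CC library and -1.97 without the second. Polq was called in 15 of 19 other settings. Chek1, the kinase that acts below ATR at stalled forks (chromosome 9, 36708482 to 36727065), stood at 27.1 and 30.2 CPM in WT CB and at 7.15 and 0 in WT CC, or 4 and 0 counts. It fell by 3.05 on the log2 scale (SE 0.80, adjusted p = 0.0421) and was called in 6 of 19 other settings. Without the second WT CC library, the one at 0, the value was -2.01 with an adjusted p of 0.102.

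H2afx (chromosome 9, 44334694 to 44336077) stood at 308 and 433 CPM in WT CB and at 114 and 58.8 in WT CC, which gave -2.10 on the log2 scale (SE 0.38, adjusted p = 0.00823). It is the shortest of the 9 called genes, and 10.2% of its length is shared with an exon annotated on the opposite strand, whose reads cannot be told apart here because the labels do not state a strand setting for the counting. Rif1 (chromosome 2, 52072832 to 52122383) stood at 195 and 213 CPM in WT CB and at 114 and 94.8 in WT CC, or -0.97 on the log2 scale (SE 0.26, adjusted p = 0.049). Rif1 lay just past the threshold and was called in 5 of 19 other settings. With each library left out, the number of all genes called moved in the same direction as that of the repair genes. The number that passed the low count filter changed as well. The count of 6 itself leaned on single libraries of either genotype. It fell with any CB library left out and rose with any CC library left out. The median log2 fold change of the 43 ran from -0.64 to -0.54 without a CB library, against -0.05 to -0.03 for all genes. Without a CC library it ran from -0.96 to -0.72, against -0.65 to -0.33 for all genes. Without the first WT CC library, Xrcc5 stood at 1.52 on the log2 scale.

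**Figure D2:**
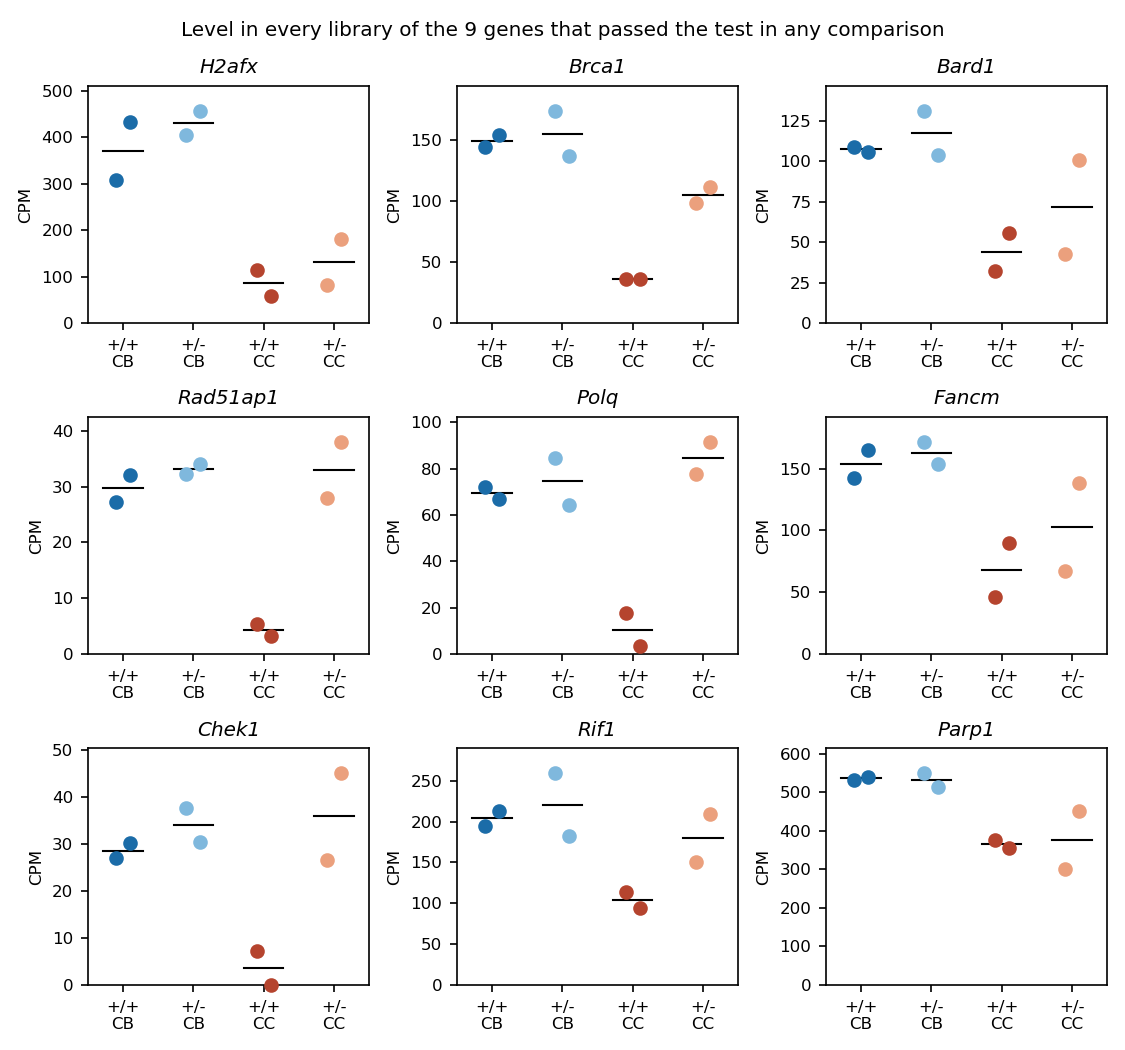
CPM in each library (points, replicate 1 left and replicate 2 right) and group means (lines) of the 9 repair genes that passed the edgeR test in any comparison of CC with CB; every axis starts at 0. In WT CC, Brca1, Rad51ap1, Polq and Chek1 lie far below the other 3 groups, while H2afx and Parp1 are low in CC of both genotypes.

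In HET cells, 1 of the 43 genes fell from CB to CC, which is 2.33% against a background of 1.5%, and 0 rose (background 2.17%). That gene was H2afx, at 405 and 455 CPM in HET CB and 82.8 and 180 in HET CC, or -1.70 on the log2 scale (SE 0.35, adjusted p = 0.0255). It lost the call without the first HET CB library (adjusted p = 0.179), the second (0.208) or the first HET CC library (0.162). Without the second HET CC library, which has the lowest macrophage, T cell and erythroid sums of the CC libraries, 4 genes were called lower, H2afx, Lig4, Parp1 and Fancd2, among 445 of the 14962 genes then tested. The median log2 fold change of the 43 was -0.29 against -0.08 for all genes, and 29 were negative (67.4%, background 53.9%). Without the first HET CC library the median was -0.09, above the -0.28 of all genes, and 23 of the 43 were negative.

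The genes that fell in WT cells differed among themselves in HET cells. Brca1 was at 174 and 137 CPM in HET CB and 98.8 and 111 in HET CC (log2 fold change -0.56, SE 0.23, adjusted p = 0.233). Rad51ap1 was at 32.3 and 34.1 CPM in HET CB and 28.04 and 37.9 in HET CC, and Polq at 84.5 and 64.4 CPM in HET CB and 77.4 and 91.3 in HET CC. For both genes the HET CC and HET CB libraries overlapped, while those of Brca1 did not, and the log2 fold change was -0.00 (SE 0.41) for Rad51ap1 and 0.18 (SE 0.36) for Polq. Chek1 was at 37.7 and 30.5 CPM in HET CB and 26.7 and 45.1 in HET CC (0.08, SE 0.53). Next to H2afx, the smallest p-values belonged to Lig4, the ligase that seals joined ends, at 56.9 and 44.3 CPM in HET CB and 5.34 and 28.5 in HET CC (-1.55, adjusted p = 0.185), to Parp1 (-0.50, adjusted p = 0.221) and, after Brca1, to Fanci, which is clamped on DNA together with FANCD2 (-0.93, adjusted p = 0.302).

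Averaged over the genotypes, with 4 libraries against 4, 8 genes fell from CB to CC (18.6%, background 6.96%) and 0 rose (background 6.6%). H2afx (log2 fold change -1.90, SE 0.26, adjusted p = 0.00078) and Brca1 (-1.31, SE 0.18, adjusted p = 0.000828) were called in all 18 other settings tried. Polq (-1.28, adjusted p = 0.021) and Rad51ap1 (-1.40, adjusted p = 0.0261) passed as well, although their values in HET cells alone were 0.18 and -0.00. The 4 others were Parp1, Bard1, Fancm and Rif1.

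Parp1 (chromosome 1, 180568924 to 180601254) is the best measured gene of the set, with 210 to 380 counts in each CC library. It stood at 533, 540, 549 and 513 CPM in the CB libraries, and at 375 and 355 in WT CC and 302 and 450 in HET CC. All 4 CC libraries lay below all 4 CB libraries, and the averaged log2 fold change was -0.53 (SE 0.14, adjusted p = 0.0323). Bard1 (chromosome 1, 71027498 to 71103146) stood at 104 to 131 CPM in CB, 32.2 and 55.6 in WT CC, and 42.7 and 101 in HET CC (-0.99, adjusted p = 0.0337). Fancm (chromosome 12, 65075603 to 65132058) stood at 142 to 171 CPM in CB, 46.5 and 89.9 in WT CC, and 66.8 and 139 in HET CC (-0.91, adjusted p = 0.0352). In both, the second HET CC library came close to the CB range and the first did not.

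The count of 8 fell when any 1 CB library or the first HET CC library was left out, and rose without any other CC library. The median log2 fold change of the 43 ran from -0.48 to -0.41 without a CB library, against -0.08 to -0.07 for all genes. Without the first HET CC library it was -0.41, against -0.42 for all genes, and without the second -0.74, against -0.51. The number of all genes called fell and rose with the same libraries left out. No overlap between 4 CC and 4 CB libraries was found for 11 genes, all lower in CC (25.6%, background 14.8%): H2afx, Brca1, Parp1, Bard1, Fancm, Lig4, Blm, Fanci, Fancd2, Xrcc6 and Rad50. Blm, the helicase that dissolves crossed strands, Fancd2, Xrcc6, which encodes the KU70 subunit of the KU ring, and Rad50 did not pass the test in this average (adjusted p = 0.153, 0.159, 0.171 and 0.198). Lig4 and Fanci did not pass either.

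The remaining genes differed less or were measured too thinly. Rad51b was at 8.99 and 12.1 CPM in WT CB, at 0 counts in both WT CC libraries, and at 0 and 14.2 CPM in HET CC. Taking 3 counts over the group as the limit that a count of 0 allows (2.56 CPM, counting error only), Rad51b was at least 4.12-fold lower in WT CC than in WT CB, but it did not pass the test (adjusted p = 0.124). Several upstream and end joining genes lay on the other side of 0. Atm stood at 166 and 151 CPM in WT CB and 175 and 213 in WT CC (log2 fold change 0.29, SE 0.22, adjusted p = 0.445), and Atr at 21.2 and 37.8 CPM in WT CB and 84.0 and 22.9 in WT CC (0.85, SE 0.54). Prkdc, the DNA-dependent protein kinase of classical end joining, stood at 159 and 143 CPM in WT CB and 152 and 234 in WT CC (0.35, SE 0.29). Xrcc5, which encodes KU80, stood at 33.7 and 25.3 CPM in WT CB but at 10.7 and 85.0 in WT CC, values on either side of both CB libraries.

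**Figure D3:**
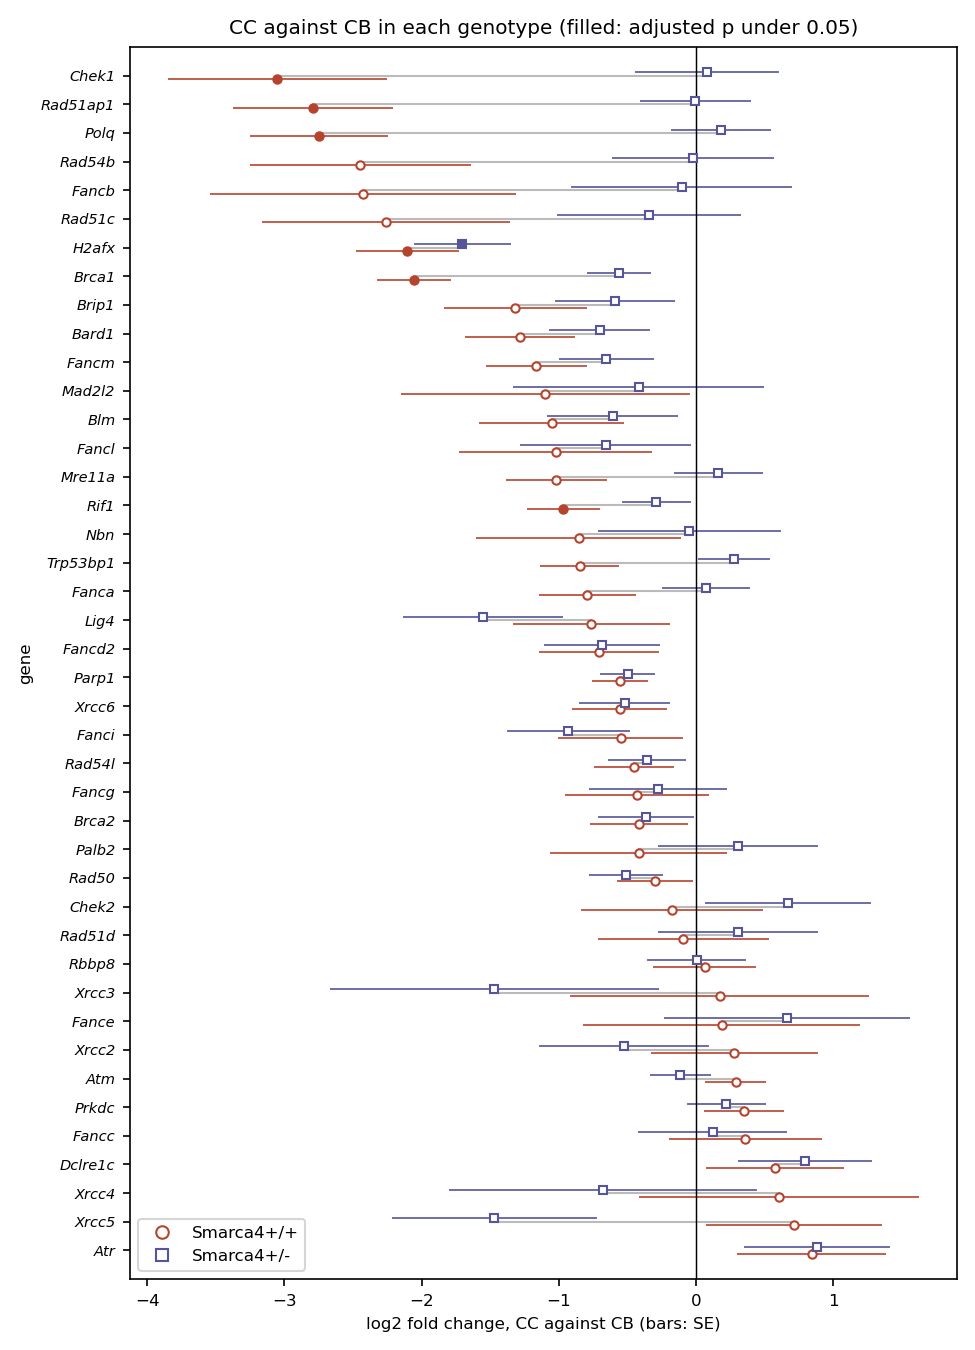
Log2 fold change of CC against CB (x axis, bars: SE) for 42 repair genes in WT (circles) and HET (squares) cells, filled where the edgeR adjusted p was under 0.05; Rad51b is left out because both WT CC libraries were at 0. Filled circles are Brca1, H2afx, Polq, Rad51ap1, Chek1 and Rif1, and the only filled square is H2afx.

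Other genes of the same pathways, a list of 55 of which 53 were tested, showed a similar count. In WT cells 6 fell and 0 rose from CB to CC: Clspn, the adaptor that ATR needs to activate CHK1 (log2 fold change -1.66, SE 0.33), Slx4, the nuclease scaffold of crosslink unhooking (-2.01, SE 0.40), Helq, a helicase (-1.70, SE 0.31), Rmi2, a partner of BLM (-1.51, SE 0.35), Xrcc1, the scaffold of single-strand break repair (-1.02, SE 0.22), and Nucks1 (-0.83, SE 0.22). In HET cells 1 fell, Rpa1, a subunit of the protein that coats single strands (-0.98, SE 0.24), and 0 rose. Averaged over genotype 11 of the 53 fell and 0 rose. Of all genes tested, 3.76% fell in WT cells, 1.5% in HET cells and 6.96% in the average. The list's medians were -0.59 in WT and -0.40 in HET.

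Cell cycle genes moved between the same libraries. Of 20 G2/M genes, 17 fell in WT and 9 in HET (medians -2.17 and -1.18), and their summed level was 7396 to 9497 CPM in CB, 2119 and 2163 in WT CC, and 3313 and 5015 in HET CC. Of 20 G1/S and replication genes, 4 fell in WT and 3 in HET (medians -0.70 and -0.71), with sums of 4713 to 5698 CPM in CB, 2897 and 3055 in WT CC, and 3122 and 3528 in HET CC. The part of the cell cycle in the differences of the repair genes was not tested.

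The genotypes were then compared within each fraction, which asks how loss of 1 Smarca4 copy changes these genes. In CB, 0 of the 43 genes passed the edgeR test, as did 0 of all genes tested (0.0%), and 0 of the 43 had an unadjusted p under 0.05 (47 of all genes did on the low side, 0.362%, and 37 on the high side, 0.285%). DESeq2 also called 0 of the 43. Values were close: the median log2 fold change was 0.08 and 28 genes were positive (65.1%, background 49.3%). The smallest p belonged to Brip1, the helicase that binds BRCA1, at 31.2 and 37.4 CPM in WT CB and 62.4 and 42.9 in HET CB (log2 fold change 0.62, SE 0.40, adjusted p = 1). Both HET libraries lay above both WT libraries, as they did for 6 genes (14.0%, background 16.2%). The next by p were Blm (0.30, SE 0.43), H2afx (0.22, SE 0.33), Trp53bp1, which encodes 53BP1 (-0.14, SE 0.25), and Chek1 (0.25, SE 0.49).

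In CC, 0 of the 43 genes passed the edgeR test between genotypes, against 0.0231% of all genes, which were 3 genes lower in HET. The values nevertheless leaned to the high side in HET CC. The median log2 fold change was 0.62 against 0.03 for all genes, 32 of the 43 were positive (74.4%, background 55.0%), and 11 had an unadjusted p under 0.05 on the high side (25.6%, background 8.8%). On the low side 1 did (2.33%, background 6.43%). Without the second HET CC library the median of the 43 was 0.27 and 25 were positive, against a median of 0.00 for all genes. Both HET CC libraries lay above both WT CC libraries for 12 genes (27.9%, background 18.1%): Polq, Brca1, Rad51ap1, Chek1, Mre11a, Trp53bp1, Rad54b, Rif1, Fanca, Brip1, Rad51c and Fancb. Only Atm had both HET CC libraries, at 136 and 153 CPM, below both WT CC libraries, at 175 and 213 (2.33%, background 14.4%).

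Polq had the smallest p of the set in this comparison, with 17.9 and 3.27 CPM in WT CC against 77.4 and 91.3 in HET CC. Summed over both libraries that was 10.2 CPM in WT (exact Poisson 95% interval 5.29 to 17.9) and 84.8 in HET (71.1 to 100.3), intervals that cover counting error only. The log2 fold change was 3.03 (SE 0.52) and the edgeR adjusted p 0.0948. Brca1, at 35.7 and 36.0 CPM against 98.8 and 111, differed by 1.55 (SE 0.29, adjusted p = 0.1). Rad51ap1, at 5.36 and 3.27 CPM against 28.04 and 37.9, had 2.95 (SE 0.61, adjusted p = 0.108). Chek1, at 7.15 and 0 CPM against 26.7 and 45.1, had 3.38 (SE 0.82, adjusted p = 0.14). Mre11a, the nuclease that starts end trimming, followed at 37.5 and 26.2 CPM against 56.1 and 102 (1.32, SE 0.39, adjusted p = 0.173).

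The size for Polq moved with the WT CC library left out, to 4.68 without the first and 2.23 without the second, and that for Chek1 to 2.33 without the second; without the first, Chek1 was at 0 counts in WT CC and gives no fold. These differences rest on the same WT CC libraries as the WT comparison of CC with CB, so the results of both are not independent. Without the second HET CC library, the log2 fold change was 2.90 for Polq, 1.45 for Brca1, 2.70 for Rad51ap1 and 2.94 for Chek1. For Mre11a it was 0.81, and the median of all 43 dropped to the 0.27 given above. The 20 G2/M genes had a median of 0.93 between genotypes in CC, 13 of them at an unadjusted p under 0.05 and 0 called, and the 20 G1/S genes a median of 0.16. The 53 other pathway genes had a median of 0.36, with 0 called. T cell markers summed to 761 and 844 CPM in WT CC and to 402 and 223 in HET CC, and erythroid markers to 715 and 811 against 489 and 140. Lck held 161 and 204 CPM of the T cell sums in WT CC and 100 and 166 in HET CC. Neutrophil markers summed to 0 in both WT CC libraries and to 216 and 9.48 CPM in HET CC. The macrophage sums, 3840 and 3698 against 4710 and 1986, overlapped, as did those of the dark zone markers, 368 and 427 against 413 and 576. The part of these lists in the genotype difference was not tested.

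The call depended on the tool. DESeq2 called 7 of the 43 higher in HET CC (16.3%, background 3.58%): Polq (adjusted p = 2.4e-06), Brca1 (0.00019), Chek1 (0.0029), Rad51ap1 (0.0033), Mre11a (0.022), Trp53bp1 and Rad54b. With no low count filter, edgeR called 4 higher (9.3%, background 0.979%) and 1 lower, Xrcc5 (2.33%, background 0.52%). Limma-voom and the other edgeR settings called 0.

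Xrcc5, the KU80 gene, was on the opposite side in CC. It stood at 10.7 and 85.0 CPM in WT CC and at 12.02 and 8.30 in HET CC, and its difference of -2.26 on the log2 scale (SE 0.79, adjusted p = 0.223) came from the second WT CC library, since the first lay among the HET values. The 8 end joining genes, Polq among them, gave mixed signs, with 4 positive and a median of -0.10. By role, the medians in CC were 0.75 for recombination (11 of 13 positive), 0.61 for the Fanconi genes (8 of 10), 0.78 for break recognition (7 of 8) and 0.34 for the kinases (2 of 4).

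**Figure D4:**
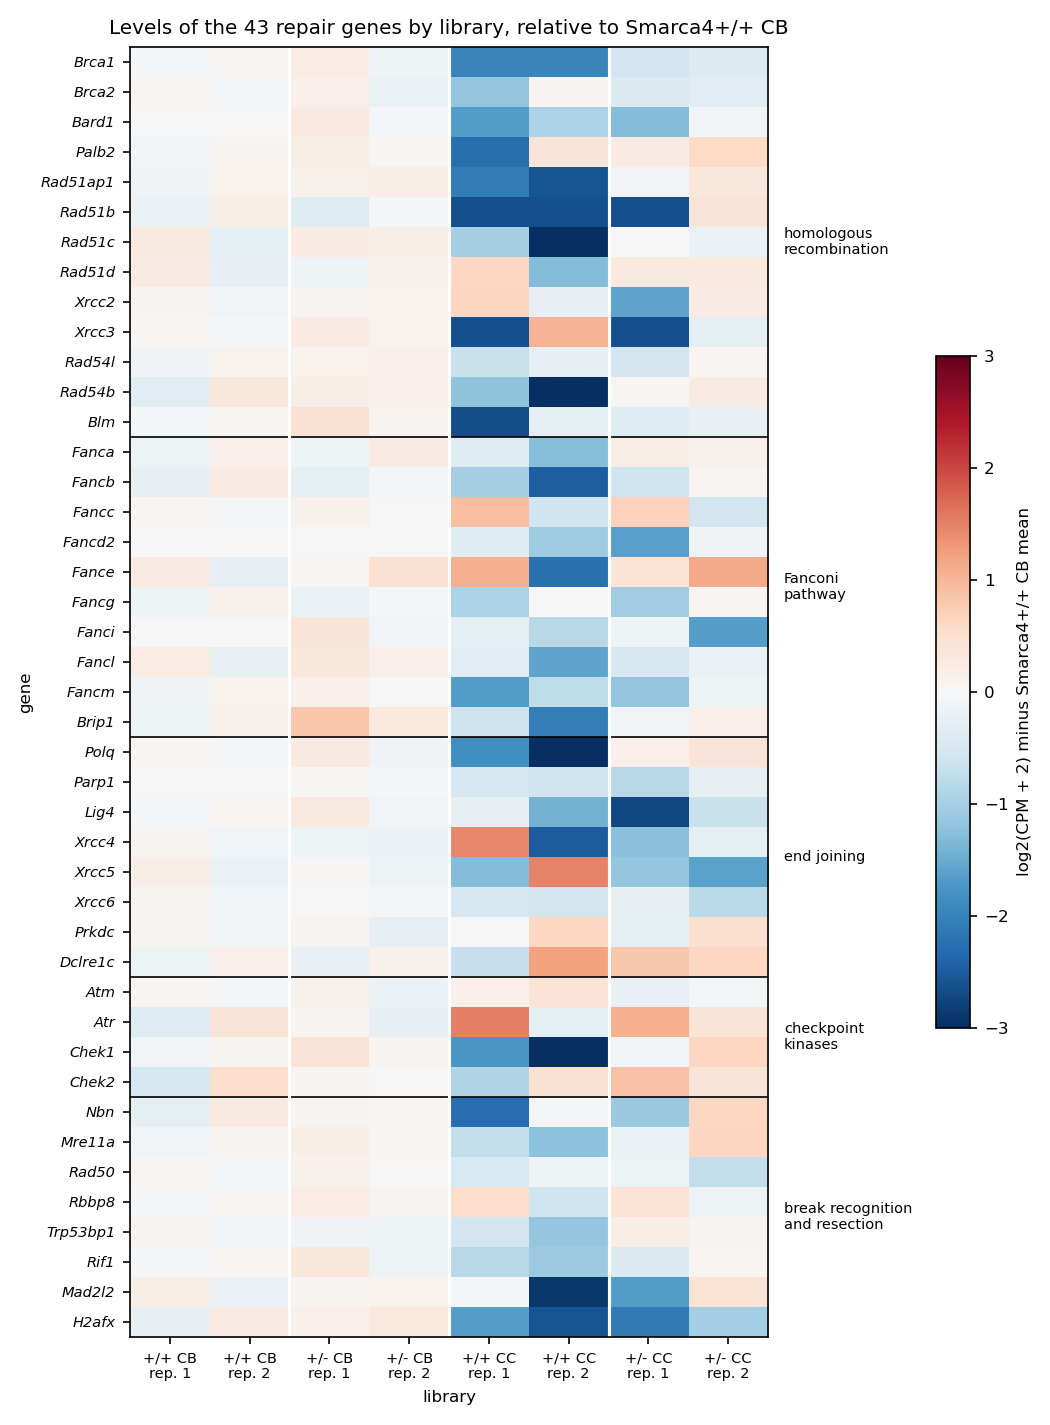
Each row is 1 of the 43 repair genes, grouped by role, and each column 1 library; color gives log2(CPM + 2) minus the mean of the WT CB libraries, limited to ±3. The CB columns are pale throughout. The second WT CC column holds the darkest blue for Polq, Chek1, Rad54b and Rad51c, at 2, 0, 0 and 0 counts. These genes are less dark in the first WT CC column, at 10, 4, 6 and 4 counts, and pale in the HET CC columns.

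Whether the genotype difference itself changed between fractions was tested with the interaction term. 0 of the 43 genes passed in edgeR, as did 0 of all genes (0.0%), while 8 had a positive term at an unadjusted p under 0.05 (18.6%, background 5.56%) and 1 a negative one (2.33%, background 3.63%). The median was 0.40, against 0.10 for all genes. The leading terms were Polq (2.93, SE 0.63, adjusted p = 0.419), Brca1 (1.49, SE 0.36), Rad51ap1 (2.79, SE 0.73), Chek1 (3.13, SE 0.98) and Trp53bp1 (1.13, SE 0.39, adjusted p = 0.444). DESeq2 called these 5 genes (11.6%, background 1.52%), with an adjusted p of 0.00032 for Polq and 0.0065 for Brca1. With no low count filter, edgeR called Polq alone (2.33%, background 0.139%).

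**Figure D5:**
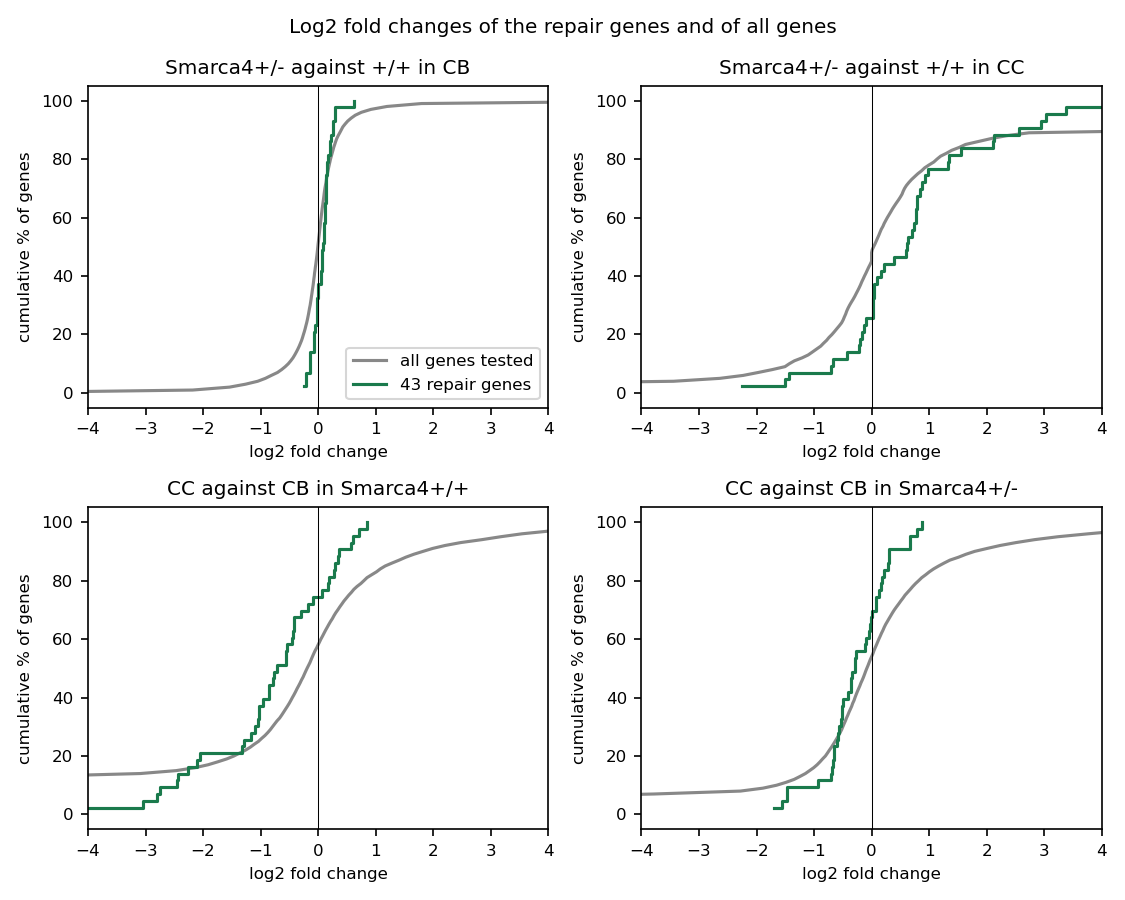
Cumulative share (y axis, percent) of log2 fold changes (x axis, drawn from -4 to 4) for the 43 repair genes (green) and all 12997 tested genes (gray) in 4 comparisons. The green curve lies right of the gray around 0 in HET against WT CC (medians 0.62 and 0.03), left of it in CC against CB of WT (-0.71 and -0.19), and close to it in HET against WT CB (0.08 and -0.00).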

How the data were processed

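The authors deposited raw read counts per gene from libraries depleted of ribosomal RNA (per the labels' protocols) beside a gene length column in bases (other unit). The submitters' processing notes name FastQC, STAR, featureCounts, Subread, R 4.2.1 and mm10. Other versions, the strand setting and the handling of multimapping reads are not stated there or in the labels. Symbols came from GENCODE M21 (55154 of 55421 identifiers), which also gave coordinates.

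Low counts were removed with filterByExpr (at least 10 counts, total 15), and TMM scaled the libraries. edgeR 4.0.16 (R 4.3.3) fitted quasi-likelihood group means to all 8 libraries (4 residual degrees of freedom). For each of 6 contrasts a 2-sided test was adjusted by Benjamini-Hochberg over 12997 genes and called at 0.05. SE is the fold change over the root of F. The fit was tested on simulated data. Alternatives were DESeq2 1.42.0, limma-voom (limma 3.58.1), other scalings and filters, a replicate block, CB thinned to 657641 counts, leaving out each library, and a fit of the compared groups only. Depth was 526353 to 24341805 counts a library, and 3 counts was the limit for a count of 0.

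The genes, lists and tests were chosen with earlier results of these data known. Named were the genes called in any contrast, the 5 smallest p-values of each contrast, the highest and lowest level per length of each role, and up to 8 called other pathway genes per contrast. Other values were chosen after they were seen. Exons of 21 of the 43 genes overlap another annotated gene, 8 over more than 10% of their length: Rad54b, with 35.8% shared on the same strand, Fancc, Fanci, Rad54l, Trp53bp1, Fancl, Fanca and H2afx. Their counts are uncertain.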

Additional observations from a re-analysis of the deposited data

How the results depend on the processing

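Between genotypes in CB the count of repair genes called was 0 in every setting tried. In CC, where edgeR called 0, DESeq2 called 7 and edgeR without a low count filter 5. For CC against CB in WT cells (6 called), limma-voom called 0 and no low count filter 11 (25.6%, against 3.94% of all genes lower). CB thinned to the mean CC total called 3 (7.69% of the 39 tested, against 3.27% of 8216 genes). The fit of only the groups compared called 1, among 292 of 11953 genes, and limma-voom called 700 of all genes. Leaving out 1 library gave 1 to 10. For HET cells (1 called) limma-voom called 0, no low count filter 2 and only the groups compared 0, and the count also changed with single libraries left out. For the interaction (0 called) DESeq2 called 5, no low count filter 1 and the replicate block within genotype 1, which was Polq. For the averaged comparison (8 called) limma-voom called 3, RLE scaling 4, total count scaling 3, pan-B cell gene scaling 2, the stricter low count filter 4, thinned CB 2, and left-out libraries 2 to 13. All genes called in the averaged comparison numbered 1763 of 12997 in the main fit. They numbered 1452 with limma-voom, 1627 with RLE scaling, 1527 with total count scaling and 1494 with pan-B cell gene scaling. The stricter filter called 1223 of 10517 genes and thinned CB 1051 of 8216. In HET cells limma-voom called 391 of all genes and no low count filter 1142 of 21554. With 1 library left out of a group, the lone one is assumed to vary like the others.

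Scaling shifted all genes: the median log2 fold change of CC against CB in WT was -0.19 with TMM, -0.07 with RLE, -0.00 with total counts and 0.15 with pan-B cell genes, and that of the 43 repair genes was -0.71, -0.58, -0.52 and -0.36. All genes called higher and lower numbered 484 and 489 with TMM against 635 and 207 with pan-B cell genes. Among named values not called, the genotype difference in CB turned to -0.016 for Blm and -0.0017 for Chek1 with thinned CB, and ranged from -0.022 to 0.50 for H2afx with 1 library left out, the lowest without the first WT CB library.

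The labels do not say whether libraries of equal number share a mouse, so the numbers were not taken as pairs. Deviations of libraries of equal number correlated at -0.05 to 0.05. That check cannot decide whether they are pairs, because counting noise in the shallow CC libraries would also weaken such correlations. A replicate block over all libraries called 5 repair genes between the fractions in WT, 1 in HET and 7 in the average, among 812, 443 and 1509 of all genes. It called 0 repair genes between genotypes in either fraction or for the interaction. The block within genotype gave 8, 1 and 8 for the comparisons of CC with CB, among 966, 576 and 1511 of all genes. Depth limits the CC values: 3 counts in a library there are worth 3.56 to 5.36 CPM.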
